A study of Bos taurus with 42 samples.

Results

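The genes described here were 5 protein-coding genes of the bovine mitochondrial genome, namely *COX1* (ENSBTAG00000043561), *COX2* (ENSBTAG00000043556), *COX3* (ENSBTAG00000043560), *CYTB* (ENSBTAG00000043550) and *ATP6* (ENSBTAG00000043584). They were found through their Ensembl gene IDs, which the supplementary tables of the study pair with these symbols, with or without the prefix MT-. All 5 were among the 22664 genes of the count table. Each had between 8419 and 4156585 reads in every library, so all 5 passed the filter on low counts in each tissue, and counting error was at most 1.09% of a value.

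*COX1*, *COX2* and *COX3* encode the catalytic core of cytochrome c oxidase (complex IV), the enzyme that passes electrons to oxygen at the end of the respiratory chain. *CYTB* encodes cytochrome b, the core membrane subunit of complex III, and *ATP6* encodes a subunit of the proton channel of ATP synthase (complex V). These genes lie on a small circular DNA that is present in many copies per cell. They are transcribed together as long precursors, from which the single messages are cut, so their amounts can differ through processing and decay of the RNA. The remaining subunits of the 3 complexes are made from nuclear genes. In the RefSeq gene table for a later cattle assembly, the members follow each other as *COX1*, *COX2*, *ATP6* and *COX3*, with *ATP8* overlapping the start of *ATP6* and *ATP6* overlapping *COX3*, while *CYTB* comes last, beyond the *ND* genes.

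RNA was sequenced from the cerebrum, liver and hind limb muscle of 14 fetuses from Angus-cross heifers, taken at day 50 of gestation. The dams were bred by artificial insemination to a common sire and then assigned at random to a control diet that met 100% of their requirements (CON, *n* = 7 fetuses, 6 male and 1 female) or to 60% of the CON delivery (RES, *n* = 7 fetuses, 5 male and 2 female). Each fetus gave 1 library per tissue, 42 in all, with strand-specific preparation and 50-bp paired reads. How the RNA was enriched before sequencing, and its integrity in each library, are not given in the sources used here. Levels are given as the share of all counts of a library. A share also moves when other genes move, and a fold change between tissues was therefore estimated with edgeR on counts scaled by the trimmed mean of M-values (TMM). In whole tissue, fewer cells of a type and less RNA per cell cannot be told apart.

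The libraries held between 4145093 and 12741299 counts, and their tissues were checked by marker genes, in CPM (counts scaled to a common library total) outside the 12 mitochondrial genes with a symbol. The 9 neural markers summed to between 1831 and 5405 CPM in the cerebrum and to at most 22.6 CPM in the liver. The 8 hepatocyte markers reached between 47924 and 185316 CPM in the liver, and the 10 skeletal muscle markers between 1685 and 11976 CPM in muscle. A pair of libraries stood apart. The cerebral library of RES fetus 1 had the lowest neural sum, 1831 CPM against 3421 CPM or more in the others. It also held 7466 CPM of the hepatocyte list, against at most 1637 CPM in any other cerebral library, with all 8 of its genes counted. Most of this was *TTR* (6924 CPM), which the choroid plexus of the brain also makes, and *ALB* and *AFP* were at 88.0 and 116 CPM there. This library was also the highest of the cerebral libraries for the skeletal muscle list (229 CPM, against at most 36.7 CPM), the red blood cell list (335 against 128 CPM), the connective tissue list (149 against 66.6 CPM) and the white blood cell list (39.1 against 12.9 CPM). The muscle library of CON fetus 73 held 1572 CPM of neural markers, mainly *STMN2* (1283 CPM), and muscle of RES fetus 1 held 329 CPM, against at most 87.2 CPM in the other 12. Comparisons between tissues were repeated without each of the 2 libraries. Leaving out the muscle library of CON fetus 73 changed no call of the 5 genes, their spread or their ratios. For the cerebral library of RES fetus 1, the calls lost and several values that moved are given.

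In all 3 tissues the 5 genes were among the abundant RNAs, and the liver held the highest and the most uneven shares. Over 14 libraries, the share of *COX1* ranged from 0.949% to 4.89% in cerebrum (median 1.40%), from 1.88% to 32.6% in liver (median 5.74%) and from 0.769% to 1.33% in muscle (median 0.871%). Every liver library was above every muscle library for *COX1*. For *COX2* the ranges were 0.188% to 1.38% (median 0.400%), 0.271% to 4.29% (median 0.712%) and 0.161% to 0.267% (median 0.189%) in the same order of tissues. Liver and muscle did not overlap for *COX2* either, although the lowest liver share was close to the highest muscle share. How many of all genes separated these tissues in this way was not counted. *COX3* took 0.181% to 2.38% of the counts in cerebrum (median 0.388%), 0.417% to 7.78% in liver (median 1.17%) and 0.353% to 0.618% in muscle (median 0.435%). *CYTB* took 0.14% to 1.27% (median 0.277%), 0.287% to 5.25% (median 0.70%) and 0.231% to 0.480% (median 0.294%), respectively. For both genes the 3 tissues overlapped. *ATP6* took 0.244% to 1.35% in cerebrum (median 0.507%), 0.303% to 4.21% in liver (median 0.721%) and 0.213% to 0.352% in muscle (median 0.285%). The highest library was more than 13 times the lowest in the liver for each of the 5 genes, from 13.9 times for *ATP6* to 18.6 times for *COX3*, whereas in muscle this ratio was between 1.66 for *COX2* and *ATP6* and 2.07 for *CYTB*.

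**Figure D1:**
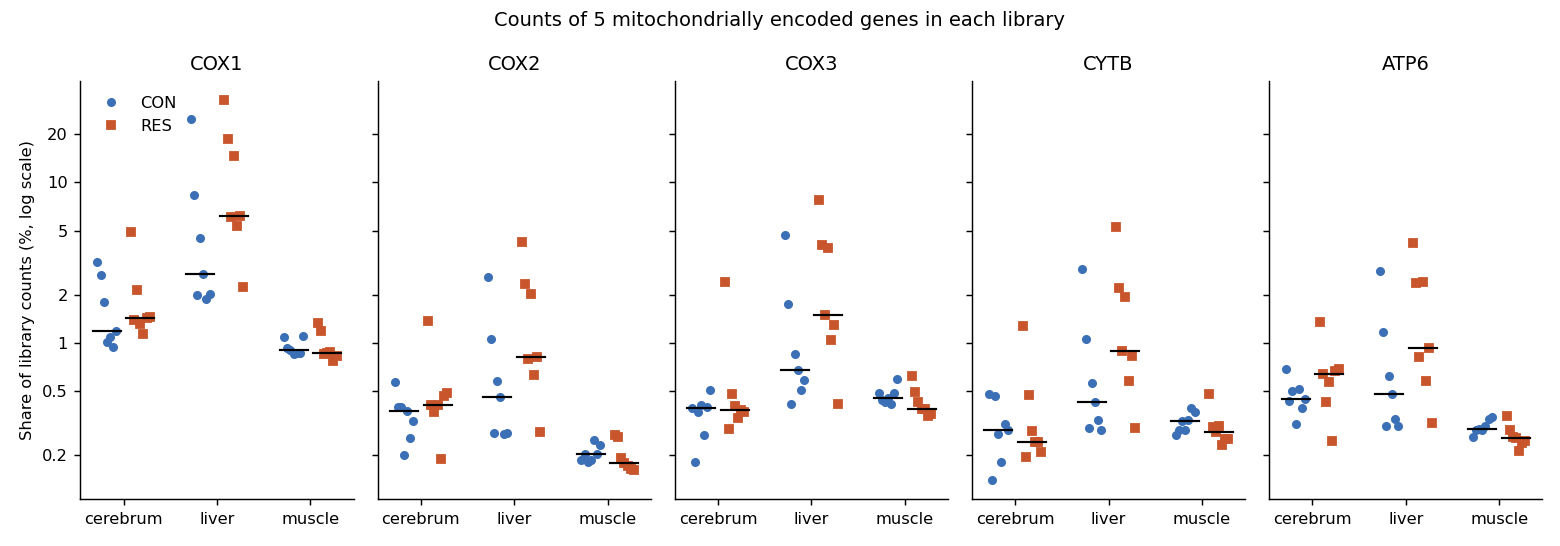
Share of the library counts (%, log scale) taken by each of the 5 genes in the 14 libraries of each tissue, with CON as circles, RES as squares and the group median as a line. The liver shares of *COX1* run from 1.88% to 32.6%, while the muscle shares stay between 0.769% and 1.33%, and CON and RES overlap in every tissue.

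The 5 genes together took 2.15% to 11.3% of the counts in cerebrum (median 3.08%), 3.29% to 54.1% in liver (median 9.14%) and 1.78% to 3.05% in muscle (median 2.14%). The liver values were spread along this range without a common level. The sum was 54.1% in RES fetus 1, 37.9% in CON fetus 2, 29.6% in RES fetus 6, 24.9% in RES fetus 33 and 13.4% in CON fetus 23, and the other 9 livers lay at 10.1% or below. RES fetus 1 had the highest sum in each of the 3 tissues. CON fetus 2 ranked 2, 2 and 5 among 14 in the cerebrum, liver and muscle, and RES fetus 70, with a low liver (3.56%), ranked 6, 11 and 13.

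**Figure D2:**
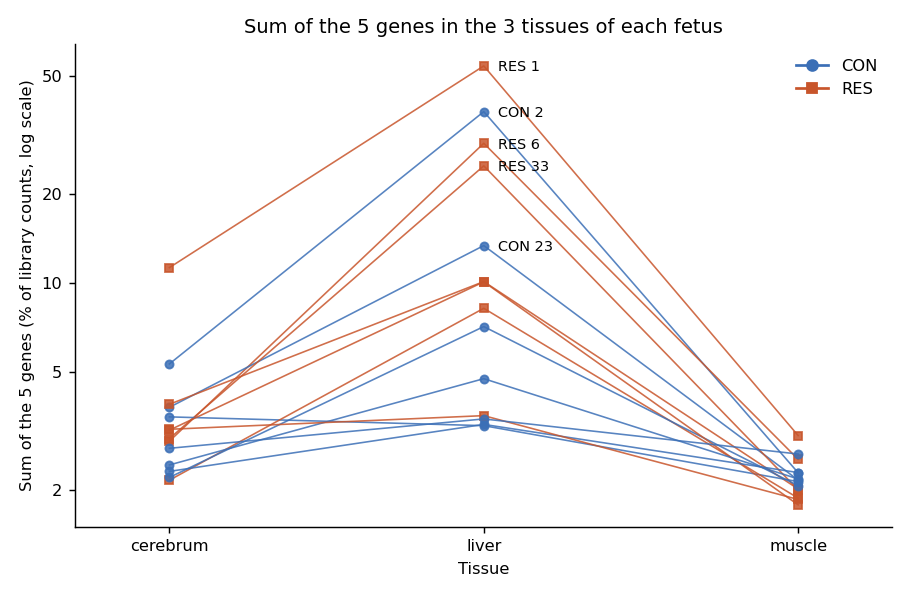
Sum of the 5 genes (% of library counts, log scale) in the cerebrum, liver and muscle of each fetus, joined by a line, for CON (circles) and RES (squares). The line of RES fetus 1 lies on top in every tissue, at 11.3%, 54.1% and 3.05%.

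Other properties also differed between the liver libraries. RES fetus 1 and CON fetus 2, the livers with the highest sums, also had the largest totals (12741299 and 11515157 counts), which include the mitochondrial counts. Their counts outside the 12 mitochondrial genes were 4110670, the lowest of the livers, and 6339238. RES fetus 1 also had the fewest genes detected (14942, against 15796 or more in the other livers). Outside the 12 mitochondrial genes, the hepatocyte list summed to 78515 CPM in RES fetus 1, 47924 CPM in CON fetus 2 and 72585 CPM in RES fetus 6, and to 185316 CPM in RES fetus 70 and 183838 CPM in CON fetus 46, whose sums of the 5 genes were 3.56% and 3.29%. All 8 hepatocyte genes were counted in each of these livers. *AFP* was the most abundant in the first 3 (17033 to 31936 CPM) and *AHSG* in the last pair (80276 and 80414 CPM). The single endothelial marker measured, *TEK*, was at 13.4 CPM in RES fetus 1 and 39.3 CPM in RES fetus 70. The hepatocyte list and *TEK* did not follow the shares in every liver, since RES fetus 52, with a sum of 8.20%, held 79644 CPM of that list and 19.4 CPM of *TEK*. The connective tissue list, with 3 genes measured, was nearly all *PDGFRB* in the liver, a receptor of pericytes and related mesenchymal cells, with *PRRX1* at 0 in 13 and *TBX15* at 0 in 9 of 14 livers. It summed to 99.7 CPM in RES fetus 1, 167 CPM in CON fetus 2, 164 CPM in RES fetus 6, 105 CPM in RES fetus 33 and 155 CPM in CON fetus 23, the 5 livers with the highest sums. It lay between 226 and 341 CPM in the other 9. These groups of livers were set by the sums themselves, and how many of all genes also separate them was not counted. The red blood cell list, with 6 genes measured, stayed between 7760 and 12844 CPM over the livers. In muscle, RES fetus 1 and RES fetus 6, with sums of 3.05% and 2.53%, had the highest skeletal muscle lists (11013 and 11976 CPM), while CON fetus 73, with the next highest sum after RES fetus 1 (2.64%), had 2787 CPM of that list. The part of these properties in the levels of the 5 genes was not tested.

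The first comparison was between tissues, for which the fit took all 42 libraries with diet and fetal sex as covariates. All 5 genes were higher in the liver than in the cerebrum and higher than in muscle. On the TMM scale, the liver exceeded the cerebrum by a log2 fold change of 3.78 ± 0.57 (SE) for *COX1*, 2.88 ± 0.50 for *COX2*, 3.54 ± 0.52 for *COX3*, 3.38 ± 0.51 for *CYTB* and 2.64 ± 0.48 for *ATP6*. The adjusted p of edgeR's quasi-likelihood test (Benjamini-Hochberg over 15972 genes) was at most 3.17e-06 for any of them, and the liver was higher in 14 of 14 fetuses for each gene but *ATP6* (13 of 14). As shares of the counts, without TMM scaling, the liver was higher in 14 of 14 fetuses for *COX1* and *COX3*, in 12 for *CYTB*, in 11 for *COX2* and in 9 for *ATP6*. The background was wide, since 38.5% of all genes tested were called higher and 45.2% lower in the liver. Against muscle, the differences were 4.76 ± 0.60 for *COX1*, 4.01 ± 0.53 for *COX2*, 3.55 ± 0.53 for *COX3*, 3.44 ± 0.53 for *CYTB* and 3.63 ± 0.50 for *ATP6*, with an adjusted p in edgeR of at most 1.41e-07. On the TMM scale the liver was higher in all 14 fetuses for each gene, and as shares of the counts in 14 for *COX1* and *COX2*, 13 for *ATP6*, 12 for *COX3* and 11 for *CYTB*. In this comparison 36.6% of all genes were called higher and 45.5% lower in the liver.

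The size of these differences depended on the scaling. Without TMM scaling, the median difference of all genes fell by 1.03 (log2) for liver against cerebrum and by 1.02 for liver against muscle. On library totals alone, 19.9% of all genes were called higher and 65.8% lower in the liver than in the cerebrum, and 16.4% higher and 69.1% lower than in muscle. On that scale, the liver was higher than the cerebrum by 2.25 (*COX1*), 1.32 (*COX2*), 1.95 (*COX3*), 1.73 (*CYTB*) and 1.07 (*ATP6*), and higher than muscle by 3.15, 2.40, 1.98, 1.82 and 2.03, and each was still called in edgeR (largest adjusted p 0.00213). With the fetus as a replicate block, the estimates were 3.21, 2.33, 3.06, 2.78 and 2.07 against the cerebrum and 3.91, 3.21, 2.86, 2.68 and 2.85 against muscle, and each of the 5 genes was still called. Without the cerebral library of RES fetus 1, the liver exceeded the cerebrum by 4.02 (*COX1*), 3.19 (*COX2*), 4.05 (*COX3*), 3.74 (*CYTB*) and 2.87 (*ATP6*).

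Muscle and cerebrum differed in 2 of the 5 genes. *COX2* was lower in muscle by a log2 fold change of -1.13 ± 0.46 (edgeR adjusted p = 0.0281) and *ATP6* by -0.99 ± 0.44 (adjusted p = 0.0460), and muscle was lower in 14 of 14 fetuses for both. In the background, 35.9% of all genes were called lower and 32.2% higher in muscle. *COX1* was also lower in 14 of 14 fetuses, by -0.97 ± 0.51, with an adjusted p of 0.0868 in edgeR, of 0.0257 in DESeq2 and of 0.0230 in edgeR on library totals. *COX3* (-0.01 ± 0.47, adjusted p = 0.988) and *CYTB* (-0.06 ± 0.46, adjusted p = 0.914) were higher in muscle in 10 of 14 fetuses. The fit used a single estimate of the spread per gene over all 42 libraries, the liver included. In liver, cerebrum and muscle, the SD of log2 CPM was 1.88, 0.82 and 0.28 for *COX2* and 1.85, 0.68 and 0.23 for *ATP6*. The errors of muscle against cerebrum thus carried the spread of the liver, and a fit of these tissues alone was not run. In this fit, the calls of *COX2* and *ATP6* were near the threshold. That of *COX2* was lost without the cerebral library of RES fetus 1 (edgeR adjusted p = 0.0683), without CON fetus 2 (0.0502) and without CON fetus 23 (0.0534). That of *ATP6* was lost with the fetus as a replicate block (adjusted p = 0.0569), with no filter (0.0508), with no fetal sex (0.0522), without the cerebral library of RES fetus 1 (0.0892) and without any of CON fetuses 2 and 23 and RES fetuses 6, 25, 33, 55 and 70 (0.0587 to 0.0770). In order of level, the liver thus came before both other tissues for every gene. In these fits with the liver included, cerebrum and muscle were not separated for *COX3* and *CYTB*, and for *COX1* only on library totals or in DESeq2.

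**Figure D3:**
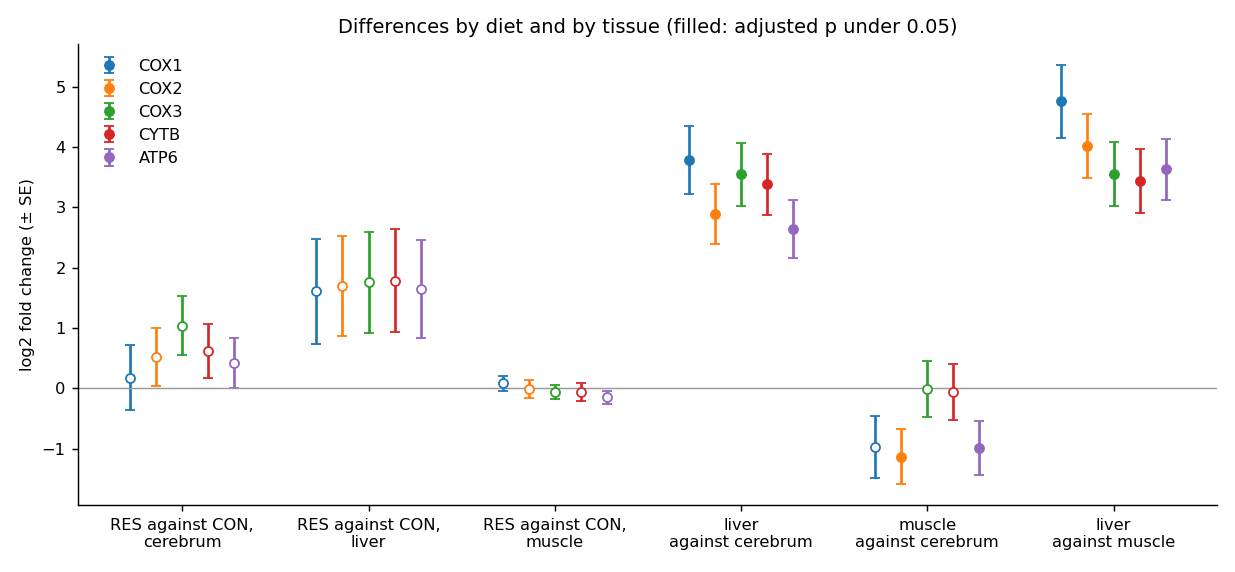
Log2 fold change ± SE of the 5 genes for RES against CON in each tissue and for each pair of tissues, with filled points for an adjusted p under 0.05 in edgeR. The points of the diet comparisons are open, while each point of the liver comparisons is filled and lies between 2.64 and 4.76.

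How much the fetuses differed among themselves was compared next, as the mean absolute deviation of log2 CPM from the group mean, tested with limma across all genes. The 5 genes varied most in the liver. The mean absolute deviation of *COX1* was 1.58 in the liver, 0.75 in the cerebrum and 0.22 in muscle. It was 1.52, 0.58 and 0.23 for *COX2*, 1.56, 0.52 and 0.21 for *COX3*, 1.52, 0.64 and 0.23 for *CYTB*, and 1.51, 0.48 and 0.16 for *ATP6*. The liver came first and muscle last for each gene, but the place of the cerebrum rested in part on 1 library. Without the cerebral library of RES fetus 1, the difference of muscle against cerebrum went from -0.31 to -0.00028 for *COX3*, from -0.42 to -0.15 for *CYTB*, from -0.53 to -0.32 for *COX1* and from -0.36 to -0.22 for *COX2*. The difference of liver against cerebrum rose without it, from 0.83 to 1.04 for *COX1*, from 1.04 to 1.35 for *COX3* and from 0.88 to 1.14 for *CYTB*. All 5 varied more in the liver than in muscle (limma adjusted p from 9.72e-05 for *ATP6* to 0.000401 for *CYTB*), where 32.3% of all genes were called more and 3.5% less variable in the liver. All 5 also varied more in the liver than in the cerebrum (limma adjusted p from 0.00231 for *ATP6* to 0.0173 for *CYTB*), against 10.2% of all genes called more and 8.57% called less variable. These last 5 calls were lost when deviations were taken from the median (adjusted p from 0.0810 to 0.181), and those of *COX1*, *COX3* and *CYTB* were lost without CON fetus 2 (adjusted p = 0.0677, 0.0602 and 0.0857). The size of these differences depended on the scaling as well. On library totals, the liver exceeded the cerebrum in mean absolute deviation by 0.55 (*COX1*), 0.62 (*COX2*), 0.58 (*COX3*), 0.44 (*CYTB*) and 0.68 (*ATP6*), against 0.83, 0.94, 1.04, 0.88 and 1.03 with TMM scaling, and the call of *CYTB* was lost (adjusted p = 0.0946). Between muscle and cerebrum no member was called (limma adjusted p from 0.111 to 0.374), although 16.5% of all genes were called less and 1.21% more variable in muscle.

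Ratios between the genes were then taken within each library, as the log2 ratio of their counts, which cancels depth and scaling. They are not corrected for gene length, so that a ratio is compared only between libraries. In the liver the ratios were tight while the levels moved, with an SD of log2 CPM from 1.85 (*ATP6*) to 1.95 (*COX1*). In muscle the levels varied little, with an SD from 0.23 (*ATP6*) to 0.30 (*CYTB*), and the widest ratios were about as variable as the levels. The SD of the log2 ratio over 14 libraries lay between 0.109 (*COX2*/*ATP6*) and 0.217 (*COX1*/*ATP6*) for the 10 pairs in the liver, and between 0.119 (*CYTB*/*ATP6*) and 0.240 (*COX1*/*CYTB*) in muscle. In the cerebrum it lay between 0.202 (*COX2*/*ATP6*) and 0.754 (*COX1*/*COX3*), with a median of 0.652 over the pairs. For *COX3*/*ATP6*, genes that lie next to each other, the cerebral SD of 0.667 stood beside 0.187 for liver and 0.136 for muscle. The differences between these SDs were not tested.

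The genes did not stand in the same proportion in the 3 tissues. The log2 ratio *COX1*/*COX3* was 2.16 ± 0.21 (SD, *n* = 14) in the liver and 1.07 ± 0.13 in muscle, that is 4.70 and 2.14 counts of *COX1* per count of *COX3* at the median. *COX1*/*CYTB* was 2.88 ± 0.20 in the liver and 1.62 ± 0.24 in muscle, and *COX1*/*ATP6* was 2.82 ± 0.22 and 1.75 ± 0.21. The differences of 1.09, 1.26 and 1.07 in these 3 ratios had the direction of the mean in 14 of 14 fetuses. In a permutation test with 100000 resamples, adjusted over all 198 tests of 66 ratios between tissues, 9 of the 10 ratios differed between liver and muscle (60.6% of all 66 ratios did). The call of *COX3*/*CYTB* was lost with medians (adjusted p = 0.112 in the permutation test), without RES fetus 33 (0.0812) and without CON fetus 68 (0.0505). The exception was *COX3*/*ATP6*, at 0.66 ± 0.19 and 0.68 ± 0.14 (adjusted p = 0.796 in the permutation test).

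**Figure D4:**
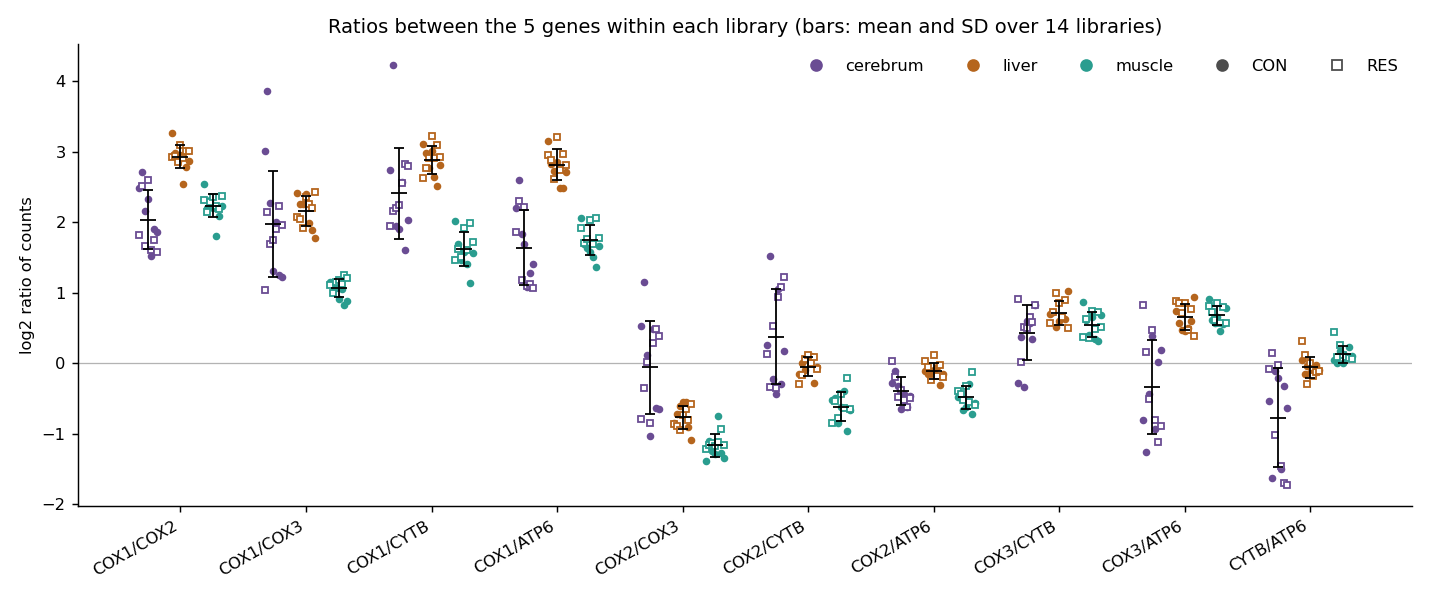
Log2 ratio of counts for each pair of the 5 genes, with 1 point per library (filled for CON, open for RES) and bars for the mean and SD over 14 libraries of a tissue. For *COX1*/*COX3* the liver and muscle points lie around 2.16 and 1.07, and the cerebral points of *CYTB*/*ATP6* spread from -1.72 to 0.14.

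Between liver and cerebrum, 9 of the 10 ratios were called in the same test (57.6% of all 66 ratios). The largest differences among them were 1.18 for *COX1*/*ATP6* (2.82 ± 0.22 in the liver, 1.64 ± 0.54 in the cerebrum) and 0.99 for *COX3*/*ATP6* (0.66 ± 0.19 and -0.34 ± 0.67), both in the same direction in 14 of 14 fetuses (adjusted p = 5.35e-05 for both, the smallest that the resamples gave). *COX1*/*COX3* was not called, with a difference of 0.19 (adjusted p = 0.462 in the permutation test). This difference was 0.11 without the cerebral library of RES fetus 1 and 0.32 without CON fetus 23. It stayed uncalled with any 1 fetus left out (lowest adjusted p = 0.0873 in the permutation test). The weakest calls were those of *COX2*/*CYTB*, *COX3*/*CYTB* and *COX1*/*CYTB*, which were lost when certain single fetuses were left out (in 9, 3 and 2 of 14 cases). The call of *COX3*/*CYTB* was also lost with medians (adjusted p = 0.0714 in the permutation test). Between muscle and cerebrum, 6 of the 10 ratios were called (65.2% of all 66), and *COX1*/*COX2* was called in addition with medians (adjusted p = 0.0229). *COX2*/*COX3* was lower in muscle by -1.10 (-1.16 ± 0.16 against -0.06 ± 0.66) and *COX2*/*CYTB* by -0.99 (-0.62 ± 0.20 against 0.37 ± 0.68), each in 14 of 14 fetuses. *COX1*/*COX3* and *COX1*/*CYTB* were lower by -0.91 and -0.79, and *COX3*/*ATP6* and *CYTB*/*ATP6* were higher by 1.02 and 0.90. Muscle thus held more *COX3* and *CYTB* relative to *COX1*, *COX2* and *ATP6* than the cerebrum did.

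The wide cerebral ratios followed particular libraries. The log2 ratio *CYTB*/*ATP6* in the cerebrum was -1.72 in RES fetus 70, -1.70 in RES fetus 6, -1.63 in CON fetus 23, -1.50 in CON fetus 68, -1.46 in RES fetus 55 and -1.01 in RES fetus 33. It lay between -0.64 and 0.14 in the other 8. These 6 libraries came from both diets and included all 3 female fetuses. Their totals (4315290 to 6230771 counts) lay within those of the other cerebral libraries (4145093 to 7576159 counts), and the part of fetal sex in this ratio was not tested. *ND4*, a complex I gene upstream of *CYTB*, was low in the same 6 libraries, at -2.26 to -1.72 relative to *ATP6*, against -1.20 to -0.64 in the others. Accordingly the ratio *CYTB*/*ND4* was narrow over the 14 cerebral libraries (SD 0.165), as were *ATP6*/*ND2* (SD 0.18) and *COX2*/*ATP6* (SD 0.202), while *CYTB*/*ATP6* had an SD of 0.705. *COX3* varied more closely with *ND4* (SD 0.295) than with *ATP6*. CON fetus 23 was extreme for the log2 ratios of *COX1* to *COX3* (3.86) and to *CYTB* (4.23), against 3.01 and 2.82 at most in the other cerebral libraries. Its *COX1* stood less apart relative to *ATP6*, at 2.60 against 2.31 at most in the others. Relative to *ATP6*, its *COX3* (-1.26), *ND1* (-1.47) and *ND3* (-2.80) were the lowest of the cerebral libraries. These pairs were picked after their values were seen.

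**Figure D5:**
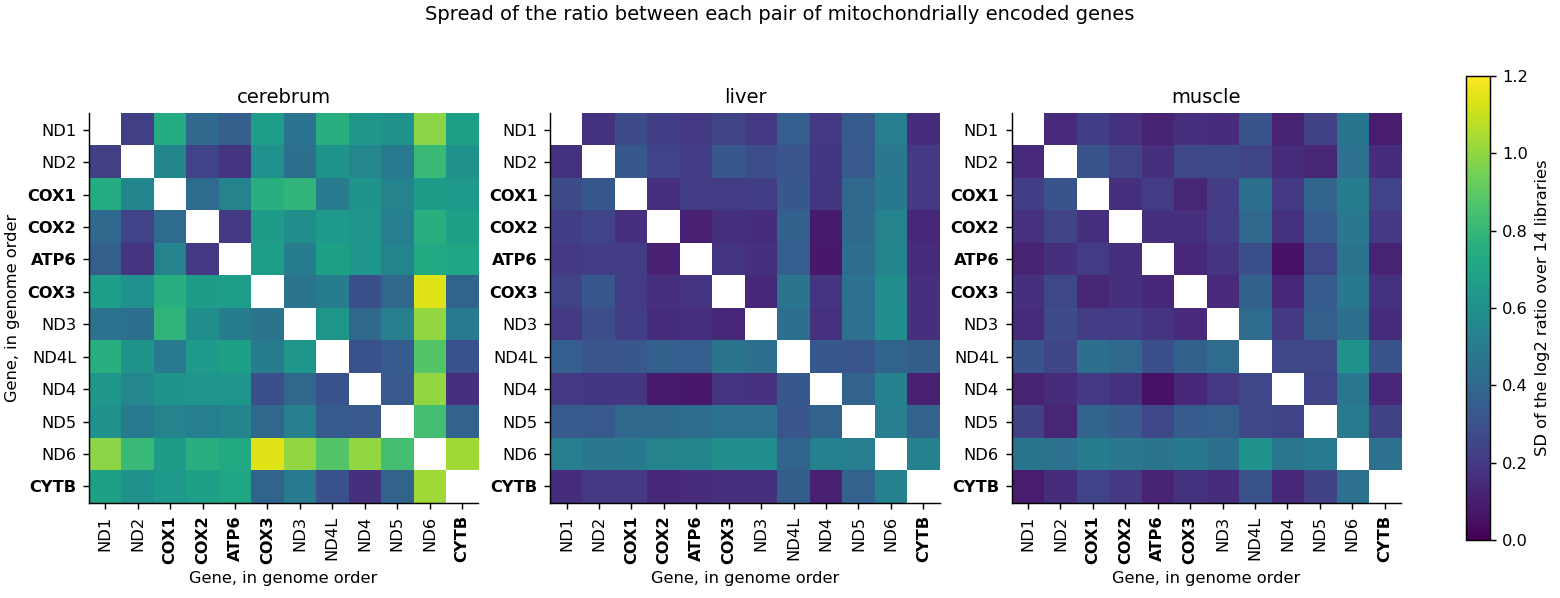
SD over 14 libraries of the log2 ratio between each pair of the 12 mitochondrial genes with a symbol, for each tissue, with the genes in their order on the genome and the 5 described genes in bold. In the cerebrum *CYTB*/*ND4* (0.165), *ATP6*/*ND2* (0.18) and *COX2*/*ATP6* (0.202) are narrow and *CYTB*/*ATP6* (0.705) is wide, and the liver and muscle panels are narrow for nearly all pairs without *ND6*, *ND5* and *ND4L*.

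The second comparison was between the diets, within each tissue and with fetal sex as a covariate. None of the 5 genes was called in any tissue, and neither was any other gene. The background in edgeR was 0% for cerebrum, 0% for liver and 0% for muscle, where 387, 3260 and 1480 genes had an unadjusted p under 0.05. DESeq2 called 0% of cerebral genes, 0.577% (78 genes) for liver and 0.0937% (14 genes) for muscle, without any of the 5.

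In the liver all 5 estimates were above 0, with large errors. *COX1* took 1.88%, 2.69% and 24.97% of the counts (lowest, median and highest) in CON livers and 2.25%, 6.21% and 32.6% in RES livers. For *COX2* these shares were 0.271%, 0.463% and 2.59% in CON and 0.279%, 0.822% and 4.29% in RES. The groups overlapped over most of their range. *COX3* took 0.418%, 0.678% and 4.69% in CON and 0.417%, 1.48% and 7.78% in RES. *CYTB* took 0.287%, 0.430% and 2.89% in CON and 0.295%, 0.895% and 5.25% in RES, and *ATP6* 0.303%, 0.481% and 2.79% in CON and 0.319%, 0.931% and 4.21% in RES. Each RES median was thus higher, while the lowest shares of the groups were alike. The median hepatocyte list was 145140 CPM in CON and 90511 CPM in RES livers. For *TEK* the medians were 37.5 and 21.2 CPM, and for the connective tissue list 255 and 232 CPM. The diets overlapped in each of these. The lists were not tested by diet, and the part of these markers in the estimates was not tested. The log2 fold change of RES against CON was 1.61 ± 0.87 (SE) for *COX1*, 1.70 ± 0.83 for *COX2*, 1.76 ± 0.84 for *COX3*, 1.79 ± 0.86 for *CYTB* and 1.64 ± 0.81 for *ATP6*, with edgeR adjusted p from 0.211 to 0.244. The estimates rested on single livers. Without RES fetus 1 they lay between 0.59 (*CYTB*) and 0.75 (*COX3*), and without CON fetus 2 between 2.49 (*ATP6*) and 2.72 (*CYTB*), with a lowest adjusted p of 0.0654.

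In the cerebrum the estimates rested mainly on RES fetus 1, the library that stood apart by its markers. *COX1* took 0.949%, 1.19% and 3.19% of the counts in CON and 1.14%, 1.42% and 4.89% in RES. *COX2* took 0.20%, 0.378% and 0.571% in CON and 0.188%, 0.412% and 1.38% in RES. The highest RES share was that of RES fetus 1 for each of the 5 genes. *COX3* took 0.181%, 0.395% and 0.510% in CON and 0.293%, 0.381% and 2.38% in RES. *CYTB* took 0.14%, 0.289% and 0.478% in CON and 0.195%, 0.242% and 1.27% in RES, and *ATP6* 0.313%, 0.448% and 0.690% in CON and 0.244%, 0.636% and 1.35% in RES. The medians of RES were higher for *COX1*, *COX2* and *ATP6* and lower for *COX3* and *CYTB*. The log2 fold changes were 0.18 ± 0.54 for *COX1*, 0.52 ± 0.48 for *COX2*, 1.04 ± 0.50 for *COX3*, 0.62 ± 0.44 for *CYTB* and 0.42 ± 0.41 for *ATP6* (edgeR adjusted p = 0.999 for each). Without RES fetus 1 they were -0.41, -0.19, 0.01, -0.13 and -0.08. Without CON fetus 23, the estimate was 0.57 for *COX1*. That cerebral library had the lowest TMM factor (0.746, against 1.05 to 1.43 in the other 13), the highest neural list (5405 CPM) and the lowest connective tissue list (9.05 CPM) of its tissue.

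Muscle gave the closest estimates, since its libraries varied least. *COX1* took 0.852%, 0.90% and 1.10% of the counts in CON and 0.769%, 0.868% and 1.33% in RES. *COX2* took 0.181%, 0.202% and 0.249% in CON and 0.161%, 0.178% and 0.267% in RES. For both, the RES libraries reached below and above the CON libraries. *COX3* took 0.419%, 0.452% and 0.593% in CON and 0.353%, 0.390% and 0.618% in RES. *CYTB* took 0.267%, 0.327% and 0.393% in CON and 0.231%, 0.277% and 0.480% in RES, and *ATP6* 0.259%, 0.289% and 0.345% in CON and 0.213%, 0.255% and 0.352% in RES. This wider range of RES held for all 5 genes. The skeletal muscle list also ranged more widely in RES (1685 to 11976 CPM) than in CON muscle (2787 to 6545 CPM). The median of *TEK* was 55.7 CPM in RES and 69.3 CPM in CON muscle. The part of these markers in the shares was not tested. The log2 fold changes were 0.08 ± 0.13 for *COX1*, -0.01 ± 0.14 for *COX2*, -0.06 ± 0.12 for *COX3*, -0.06 ± 0.15 for *CYTB* and -0.15 ± 0.11 for *ATP6* (edgeR adjusted p from 0.641 to 0.981). At these errors only large changes could have been seen in the cerebrum and liver, and a missed threshold does not show that the diets were alike.

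Neither the change of the diet difference between tissues nor the spread by diet was called for a member. The interaction of diet and tissue gave 0% of 15972 genes in edgeR (897 with an unadjusted p under 0.05), with adjusted p of 0.83 for each of the 5 genes. For the spread between fetuses, limma called 0.0066% of genes (1 gene) for cerebrum, 0.00739% (1 gene) for liver and 0% for muscle (2103 with an unadjusted p under 0.05). In muscle the mean absolute deviation of log2 CPM was 0.31 in RES and 0.14 in CON for *COX1* (unadjusted p = 0.0412 in limma, adjusted p = 0.344) and 0.32 and 0.14 for *COX2* (unadjusted p = 0.0439, adjusted p = 0.346). The difference of *COX1* fell from 0.17 to 0.056 without RES fetus 1 and that of *COX2* from 0.18 to 0.11 without RES fetus 6. The adjusted p of the other members and tissues lay between 0.398 and 0.970 in limma. Of 198 ratios tested by diet over the 12 genes with an exact permutation test over all splits of the fetuses, 0% were called (4 had an unadjusted p under 0.05, and the smallest p the test can give is 0.000583). The ratio with the lowest p among pairs of the 5 genes was *COX1*/*COX3* in muscle, chosen after its values were seen, at 0.998 ± 0.124 (SD, *n* = 7) in CON and 1.14 ± 0.085 in RES (exact permutation p = 0.0274, adjusted p = 0.985). The largest difference by diet among the 10 liver pairs was 0.13 for *COX1*/*ATP6* (exact p = 0.264). It was 0.080 without RES fetus 52 and 0.20 without CON fetus 2. The higher liver estimates of the 5 genes thus came with far smaller differences in their ratios.

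The other mitochondrial genes with a symbol are the 7 *ND* genes, which encode subunits of complex I. All 7 were higher in the liver than in the cerebrum and in muscle, for example *ND1* by 2.78 ± 0.53 and 3.91 ± 0.55 (log2, edgeR adjusted p = 6.50e-06 and 2.70e-08) and *ND4* by 3.33 ± 0.48 and 3.53 ± 0.50 (adjusted p = 3.82e-08 and 2.52e-08). Their median difference between liver and cerebrum was 3.33, beside -0.17 over all genes tested. In muscle against cerebrum, 2 of the 7 were lower, beside 35.9% of all genes, namely *ND1* (-1.13, adjusted p = 0.0371) and *ND6* (-1.32, adjusted p = 0.0130). None was called by diet, and in the liver all 7 estimates were above 0 with a median of 1.88, against -0.03 over all genes. *ATP8* and the ribosomal RNA genes were not analysed here.

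The nuclear partners of the 5 genes were measured in part, and their median differences between liver and cerebrum were smaller. The counts below are on the TMM scale, where 38.5% of all genes were called higher and 45.2% lower in the liver than in the cerebrum, and 36.6% and 45.5% in the liver than in muscle. With lists this short, no count is set apart from that background. Of complex III, 3 nuclear subunits were measured, with 2 called higher and 1 lower in the liver than in the cerebrum. *UQCRC1*, a core subunit, was higher by 1.5 ± 0.11 (edgeR adjusted p = 7.70e-17), and *UQCRH*, the hinge subunit, was lower by -0.72 ± 0.19 (adjusted p = 0.000685). Of complex IV, 4 nuclear subunits were measured and 3 were higher in the liver than in the cerebrum, among them *COX8A* (1.84 ± 0.17, adjusted p = 1.58e-13) and *COX7A1* (1.71 ± 0.27, adjusted p = 2.97e-07). The muscle form *COX6A2* had 33 to 321 counts in muscle libraries, 0 to 6 in cerebral libraries and 0 to 2 in liver libraries, so that it marked muscle. *COX8B* had 14 to 141 counts in muscle, 10 to 52 in the liver and 0 to 5 in the cerebrum. Of complex V, 3 of 5 nuclear subunits were higher in the liver than in the cerebrum, 4 of 5 were higher in the liver than in muscle (2 of 5 higher and 2 lower on library totals), and 3 of 5 were lower in muscle than in the cerebrum, where 35.9% of all genes were. *ATP5F1B*, the catalytic beta subunit, was higher in the liver than in muscle by 0.46 ± 0.15 (edgeR adjusted p = 0.00498) on the TMM scale but lower by -0.49 ± 0.22 (adjusted p = 0.0363) on library totals. *ATP5MC3*, a subunit of the rotor ring, was lower in muscle than in the cerebrum by -0.45 ± 0.19 (adjusted p = 0.0355), a call that was lost on library totals (adjusted p = 0.156). The median difference between liver and cerebrum was 1.5, 1.78 and 0.78 (log2) for the measured subunits of complexes III, IV and V, and between 2.64 and 3.78 for the 5 mitochondrial genes. On library totals these medians were 0.46, 0.78 and -0.19, with 2 of 3, 3 of 4 and 1 of 5 subunits called higher and 1, 1 and 2 called lower, and the 5 mitochondrial genes lay between 1.07 and 2.25. On that scale, 19.9% of all genes were called higher and 65.8% lower in the liver than in the cerebrum. Against muscle these shares were 16.4% and 69.1%.

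Factors that act on these genes were measured in part, and most of their differences between liver and cerebrum changed with the scaling. On library totals, edgeR called no gene of these 3 lists higher in the liver than in the cerebrum (lowest adjusted p among estimates above 0, 0.241 for *TFB1M*), and 2 of 6 assembly factors, 5 of 7 genes of transcription and RNA handling and 4 of 5 regulators were called lower, where 19.9% of all genes were called higher and 65.8% lower. The values that follow are on the TMM scale. There, 38.5% of all genes were called higher and 45.2% lower in the liver than in the cerebrum. Against muscle, the shares were 36.6% and 45.5%. Of complex IV assembly factors, 5 of 6 were higher in the liver than in the cerebrum, among them *COX14* (1.09 ± 0.22, edgeR adjusted p = 1.42e-05) and *COX20* (1.17 ± 0.18, adjusted p = 1.34e-07), both early factors, at 0.090 and -0.022 on library totals (adjusted p = 0.589 and 0.855), and *COX15*, an enzyme of heme a synthesis, was lower (-0.65 ± 0.15, adjusted p = 0.000203). In mitochondrial transcription and RNA handling, 7 genes were measured, with 3 higher and 2 lower in the liver than in the cerebrum, and 6 higher in the liver than in muscle. Against muscle, on library totals, none of these 7 was called higher and 2 were called lower. Of all genes, 16.4% were called higher and 69.1% lower there. *TFB1M*, which methylates mitochondrial ribosomal RNA, was higher in the liver than in the cerebrum by 1.28 ± 0.11 (edgeR adjusted p = 1.74e-14), against 0.17 ± 0.14 on library totals (adjusted p = 0.241). *ELAC2*, which cuts transfer RNAs out of the mitochondrial precursors, was higher in the liver by 0.87 ± 0.13 (adjusted p = 1.51e-07), against -0.22 ± 0.18 on library totals (adjusted p = 0.253). *TEFM*, the mitochondrial elongation factor, was lower in muscle than in the cerebrum by -1.20 ± 0.18 (adjusted p = 1.04e-07). *MTERF4*, a regulator of the mitochondrial ribosome, was lower in the liver than in the cerebrum by -0.33 ± 0.12 (adjusted p = 0.0143). Of 5 regulators of mitochondrial content, 3 were higher and 1 lower in the liver than in the cerebrum. *PPARGC1A*, a coactivator of mitochondrial biogenesis, was higher in the liver than in muscle by 1.57 ± 0.13 (edgeR adjusted p = 4.91e-15) and lower in muscle than in the cerebrum by -1.08 ± 0.12 (adjusted p = 4.45e-10). *GABPB1*, a subunit of nuclear respiratory factor GABP, was lower in the liver than in the cerebrum by -1.10 ± 0.13 (adjusted p = 3.16e-10), and the difference of *YY1* was 0.03 ± 0.12 (adjusted p = 0.834). No gene of these lists was called by diet in any tissue.

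Finally, the genes whose log2 CPM followed the mean of the 5 members most closely were listed within each tissue, as a description over 14 libraries that share depth and scaling. Among mitochondrial genes these were *ND2*, *ND5* and *ND4* for cerebrum (Pearson r = 0.920, 0.914 and 0.896), *ND4*, *ND3* and *ND1* for liver (0.999, 0.998 and 0.996) and *ND1*, *ND3* and *ND4* in muscle (0.943, 0.920 and 0.911). The members themselves followed their own mean with r between 0.869 (*COX3*) and 0.942 (*COX2*) in cerebrum, 0.998 and 0.999 in liver, and 0.873 (*COX1*) and 0.955 (*COX3*) in muscle. Outside the mitochondrial genome, the genes with a symbol that ranked highest were *ATP6V0E1*, *TPM1* and *SCAMP2* for cerebrum (0.953, 0.946 and 0.934), *THYN1*, *NUCKS1* and *RPS6* for liver (0.993, 0.992 and 0.991) and *TOMM40L*, *THAP8* and *BOP1* in muscle (0.882, 0.879 and 0.847). The cerebral and liver values carry the weight of RES fetus 1, which lay at the top in both.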

How the data were processed

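RNA-Seq reads of 42 libraries (14 fetuses, 3 tissues) were mapped by the authors to ARS-UCD 1.2 with Ensembl annotation (release 100) by STAR 2.7.3a, with GeneCounts giving reads per gene. The deposited table holds raw counts of 22664 genes, and the strand column kept is not stated. Symbols came from the supplementary tables, which name 5117 of the genes. The members, gene lists and tests were chosen with earlier results of these data known.

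Genes with a CPM under 1 in 80% or more of the libraries were left out. Counts were scaled by TMM and tested with edgeR 4.0.16 (quasi-likelihood, R 4.3.3), by diet within tissue with fetal sex, and between tissues with diet and sex, with Benjamini-Hochberg adjustment over all genes and a threshold of 0.05. An SE was the log2 fold change over the square root of its F. Spread was tested with limma 3.58.1 on absolute deviations of log2 CPM (prior count 1), and ratios with permutation tests in Python 3.11.15 (scipy 1.17.1, numpy 2.4.6, pandas 2.3.3, seed 7), exact by diet and with 100000 resamples by tissue. The fits were tested on simulated data. Named genes were, for each nuclear list, the 2 with the highest mean CPM and, between tissues, the 2 higher and 2 lower genes with the lowest adjusted p over the lists.

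The 3 tissues of a fetus share its number, so the numbers pair the samples. The mean correlation of deviations between tissues of the same fetus was 0.0768 (liver and cerebrum), 0.0571 (muscle and cerebrum) and 0.0979 (liver and muscle), against -0.0130, -0.0103 and -0.0166 for other fetuses of the diet. A fit with the fetus as replicate block was an alternative. Others were DESeq2 1.42.0, its size factors in edgeR, library totals, scaling without the mitochondrial genes, other filters, no fetal sex, males only, medians, each fetus left out, and, chosen after seeing the data, each of 2 single libraries left out. P-values of the diet tests within a tissue measure the spread between fetuses. The main tissue tests took the libraries of a fetus as separate, so their error mixes spread between fetuses with spread within them. No sequences or coordinates were used.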

Additional observations from a re-analysis of the deposited data

Results flagged for a closer look

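In 90 groups of 7 libraries (5 shares and 10 ratios, by tissue and diet), 17 had a library far from the others, by Dixon's test of the gap to the nearest library against the range of the group. Chance gives about 1 in 20 such groups only where values follow a normal distribution. The shares were tested without a log scale, and all 13 flags on shares were for the highest library. The 5 genes are also not independent of each other, so the number of flags is not set against chance. In cerebral RES libraries, RES fetus 1 was far above the rest for *COX1* (4.89%), *COX2* (1.38%), *COX3* (2.38%), *CYTB* (1.27%) and *ATP6* (1.35%). The same library had the lowest neural sum and the highest hepatocyte list of its tissue, most of the latter being *TTR*. In CON livers, CON fetus 2 stood out for *COX1* (24.97%), *COX2* (2.59%), *COX3* (4.69%), *CYTB* (2.89%) and *ATP6* (2.79%), and in RES livers RES fetus 1 stood out for *CYTB* (5.25%). In muscle, *CYTB* was far above the other RES libraries in RES fetus 1 (0.480%), and *COX3* far above the other CON libraries in CON fetus 73 (0.593%). Both libraries held neural markers (329 and 1572 CPM), against at most 87.2 CPM in the other muscle libraries.

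Among ratios, the log2 ratio *COX1*/*CYTB* was 4.23 in the cerebrum of CON fetus 23 against 2.74 in the next CON library. *COX2*/*COX3* was -0.94 in muscle of RES fetus 6, *COX2*/*ATP6* was -0.31 in the liver of CON fetus 69, and *COX3*/*CYTB* was 1.03 in the liver of CON fetus 73. The causes were not tested.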

How the results depend on the processing

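For the 5 genes, the 120 recomputed values of liver against cerebrum and the 120 of liver against muscle kept their direction and stayed past the threshold, as did the spread between liver and muscle in 100 of 100. The 110 values of the diet difference in the liver and the 95 of the interaction stayed short of it. Values that changed sign were never called. With the fetus as replicate block, the differences of *COX3* and *CYTB* between muscle and cerebrum were 0.20 and 0.10, the block ended the call of *ATP6* there (adjusted p = 0.0569, range 0.0397 to 0.0892 with 1 fetus or library left out), and it changed no other call of the 5 genes or their ratios. In males only, the diet difference in muscle was 0.16 for *COX2* and 0.038 for *CYTB*. On library totals, the difference in spread by diet in the liver was -0.021 for *COX1*, genes called for spread by diet were 0 in cerebrum and liver, and those for spread between muscle and cerebrum were 1537 (2830 as reported). With deviations from the median, genes called for spread were 0 by diet in cerebrum and liver, 452 for liver against cerebrum (3006 as reported), 58 for muscle against cerebrum and 2269 for liver against muscle (5713 as reported). DESeq2 called 78 genes by diet in the liver and 14 in muscle, against 0 in edgeR. With medians, *COX3*/*ATP6* differed by 0.013 between liver and muscle. With 1 fetus or library left out, the diet difference ranged from -0.41 to 0.57 (*COX1*), -0.19 to 0.76 (*COX2*), -0.13 to 0.78 (*CYTB*) and -0.081 to 0.60 (*ATP6*) in the cerebrum, and from -0.016 to 0.15 (*COX1*), -0.11 to 0.16 (*COX2*) and -0.23 to 0.038 (*CYTB*) in muscle. Without a change of sign, it ranged in muscle from -0.17 to -0.0018 (*COX3*) and from -0.25 to -0.087 (*ATP6*). The difference between muscle and cerebrum ranged from -0.090 to 0.33 (*COX3*) and -0.18 to 0.18 (*CYTB*). The difference in spread by diet ranged in the cerebrum from -0.64 to 0.058 (*COX1*), -0.19 to 0.20 (*COX2*), -0.024 to 0.73 (*COX3*) and -0.039 to 0.58 (*CYTB*), and in the liver from -0.21 to 0.85 (*COX1*), -0.018 to 0.95 (*COX2*) and -0.062 to 1.04 (*CYTB*). Genes called for spread ranged from 0 to 2 by diet in the cerebrum, 0 to 216 in the liver (216 without CON fetus 2), 0 to 48 in muscle (48 without RES fetus 55), and 1729 to 3879 between muscle and cerebrum (1729 without CON fetus 23). Apart from leaving libraries out, the causes were not tested. Counting error was small for the 5 genes, and the number of fetuses and their spread limit the precision.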

Other observations

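The 12 mitochondrial genes with a symbol together took 2.73% to 14.7% of the counts in cerebrum, 4.04% to 67.7% in liver and 2.35% to 4.03% in muscle. In the liver of RES fetus 1, only 4110670 of 12741299 counts fell outside them. *ND6* is the protein-coding gene on the other strand of the mitochondrial genome. In the cerebrum its log2 ratio to *ATP6* ranged from -9.63 (RES fetus 1) to -6.75 (CON fetus 23), and its ratio to *COX3* had the widest SD of the 66 pairs (1.14). Reads from the opposite strand could be counted for it only where the strand setting allowed that, and this setting is not stated.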
